A study of Mus musculus with 71 samples.

Results

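The comparison described here is STM2457 against DMSO in mouse embryonic stem cells that received no s4U, and it rests on 8 of the 71 libraries of the series. The members were chosen by their labels alone: 4 libraries labelled as without s4U and treated with STM2457, and 4 labelled as without s4U and treated with DMSO. The study asked how loss of N6-methyladenosine (m6A) affects the stability of transcripts from the X chromosome and from autosomes, and measured it by SLAM-seq, in which newly made RNA carries the nucleoside 4-thiouridine (s4U) and is read as T-to-C conversions. The other 63 libraries were labelled with 100 µM s4U for 24 h and collected at 8 times of a uridine chase, named T0 to T7. The unlabelled libraries serve there as the conversion background, but they also hold ordinary read counts, which are the measurement used here.

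All cells were male mESC, grown in 2i/LIF, that is, in medium with inhibitors of GSK3 and MEK and the cytokine LIF. STM2457 was used at 20 µM and DMSO is its solvent. In the labelled libraries the inhibitor was present from 6 h before the chase, but the labels do not say how long the unlabelled cells were treated, so the duration of the comparison is not known. The labels number the replicates 1 to 4, and the study's methods describe numbered replicates as biologically independent.

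m6A is placed on mRNA by a nuclear complex in which Mettl3 is the catalytic subunit, Mettl14 its partner, and Wtap, Virma, Zc3h13, Cbll1 and Rbm15 help to position it. Fto and Alkbh5 can remove the mark, and proteins with a YTH domain bind it: Ythdf1, Ythdf2 and Ythdf3 in the cytoplasm, where the mark is best known for promoting decay, and Ythdc1 in the nucleus. STM2457 occupies the catalytic pocket of Mettl3. The inhibitor acts on the enzyme and not on its mRNA, so the read count of Mettl3 is not a check of the treatment.

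The 8 libraries held between 5220971 and 7368244 reads on 3′ UTR windows, and DMSO replicate 4 and STM2457 replicate 1 were the shallowest. These 2 libraries also lay farthest out on the first principal component, which held 32.1% of the variance and separated the treatments (scores of -39.2 and 41.7, with the other DMSO libraries between -17.5 and -3.73 and the other STM2457 libraries between 5.31 and 16.6). Reads that mapped to several places made up 25.9% to 28.8% of a library. The 9 embryonic stem cell markers in the tables summed to 5208 to 5865 CPM (reads of a gene scaled to the total of its library) in DMSO and to 5188 to 5595 CPM in STM2457, whereas the 10 markers of primitive and definitive endoderm summed to at most 13.2 CPM, with Sox7 and Ttr at 0 in all 8 libraries. Fibroblast or feeder markers summed to 178 to 291 CPM in DMSO and 211 to 231 CPM in STM2457, nearly all of it Fn1, with Lum and Postn at 0.

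Of 10708 genes with enough reads to be tested, 107 passed an adjusted p of 0.01 in edgeR's quasi-likelihood test. STM2457 raised 85 of them, which is 0.794% of the genes tested, and lowered 22, which is 0.205%. The 4 STM2457 libraries lay wholly above the 4 DMSO libraries in all 85 and wholly below them in all 22, and such separation was seen upward in 6.72% and downward in 5.51% of all genes tested. Rises had a median log2 fold change of 0.90 and falls of -0.89, against -0.01 over all genes, and the smallest called change was 0.56 in size. Values are relative to the total of a library, and in such bulk samples a change in the cells present and a change of RNA within cells cannot be told apart. At least 2-fold rises numbered 25 and at least 2-fold falls 8. When libraries were scaled to ribosomal protein genes in place of all genes, 49 genes rose and 4 fell, so that 92.5% of calls were rises instead of 79.4%.

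**Figure D1:**
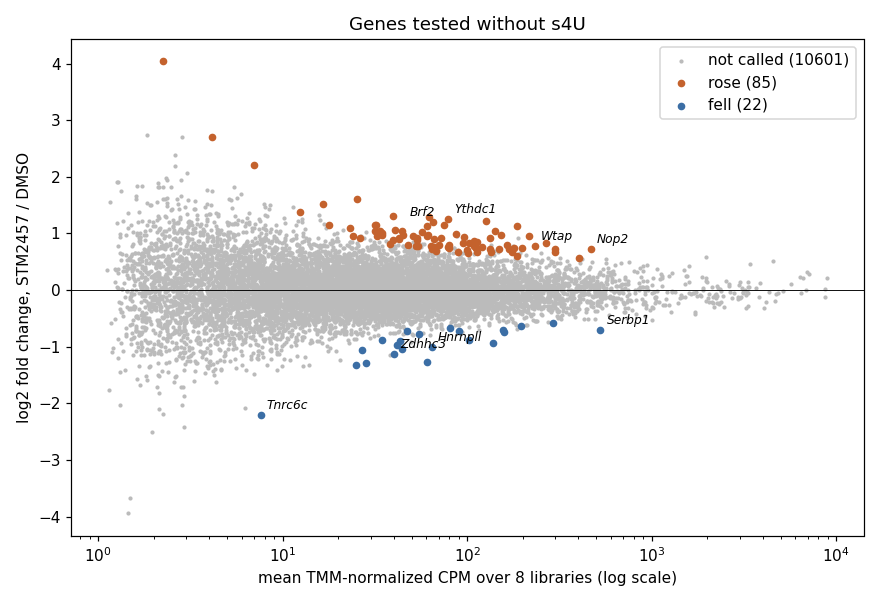
Each point is one of the genes tested, with its mean TMM-normalized CPM over the 8 unlabelled libraries on a log axis and its log2 fold change of STM2457 over DMSO on the other axis. The 85 genes that rose and the 22 that fell are coloured, and the rises outnumber the falls.

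The number of calls depended on single libraries. It was 33 without DMSO replicate 2, 36 without DMSO replicate 3, 34 without STM2457 replicate 2, 29 without STM2457 replicate 3 and 58 without STM2457 replicate 4. Without both libraries that lay farthest out, DMSO replicate 4 and STM2457 replicate 1, it was 162, of which 95 were among the 107. Of the 38 named genes that were called, 12 passed the threshold whichever of the 8 libraries was removed: Aunip, Ythdc1, Brf2, Slc25a28, Trp53rkb, Wtap, Zfp574, Zfp628, Hnrnpll, Zdhhc3, 2210016L21Rik and Sar1a.

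The components of the m6A pathway itself were looked at first. Ythdc1, the nuclear reader (chromosome 5, 86804221 to 86836659, plus strand, GRCm38), stood at 41, 53.6, 47.2 and 45.2 CPM in DMSO replicates 1 to 4 and at 92.2, 114, 128 and 111 CPM in the STM2457 replicates. The lowest STM2457 library was far above the highest DMSO library. Ythdc1 rose by a log2 fold change of 1.26 ± 0.15 (SE, n = 4 per group; adjusted p = 9.97e-05). Reads that mapped to several places made up 46.2% of its reads, and with those removed the log2 fold change was 1.53.

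Wtap, which anchors the writer complex (chromosome 17, 12966796 to 12994169, minus strand, GRCm38), was measured at 174, 165, 160 and 182 CPM in DMSO and at 298, 266, 305 and 302 CPM in STM2457. Both groups were tight and did not overlap. Its log2 fold change was 0.78 ± 0.12 (SE; adjusted p = 0.000861), and it was 1.34 without the 64.3% of its reads that mapped to several places. Ythdf1, a cytoplasmic reader, went from 120.5, 136, 151 and 134 CPM to 180, 236, 208 and 241 CPM, a log2 fold change of 0.68 ± 0.13 (SE; adjusted p = 0.00502). The groups of Ythdf1 did not overlap, but its call was lost when any of DMSO replicates 1, 2 and 3 or STM2457 replicates 2, 3 and 4 was left out, with adjusted p-values of up to 0.0349.

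Of the 9 readers tested, 2 rose and none fell, and of 7 tested members of the writer complex 1 rose and none fell. Over all genes tested, 0.794% rose and 0.205% fell. Neither of the 2 demethylases passed. Rbm15 (0.66, adjusted p = 0.0259), Ythdf2 (0.62, adjusted p = 0.0384), Zc3h13 (0.55, adjusted p = 0.0852) and Ythdf3 (0.55, adjusted p = 0.0929) had positive log2 fold changes that did not pass. Rbm15 passed in DESeq2, with an adjusted p of 0.00796. The median log2 fold change was 0.30 over the readers and 0.06 over the writer complex.

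Mettl3 was at 29.1, 23.4, 34.2 and 30.5 CPM in DMSO and at 26, 16.8, 24.5 and 23.2 CPM in STM2457. These groups overlapped, and the log2 fold change of -0.38 ± 0.20 (SE) did not pass (adjusted p = 0.319). Virma (-0.30), Igf2bp3 (-0.19), Igf2bp2 (0.30), Alkbh5 (0.11), Igf2bp1 (0.07), Fto (-0.07), Cbll1 (0.06), Mettl14 (0.06), Ythdc2 (0.05) and Hnrnpa2b1 (-0.03) had log2 fold changes with adjusted p-values of 0.276 or more. The signs of Fto and Hnrnpa2b1 turned under scaling to ribosomal protein genes.

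**Figure D2:**
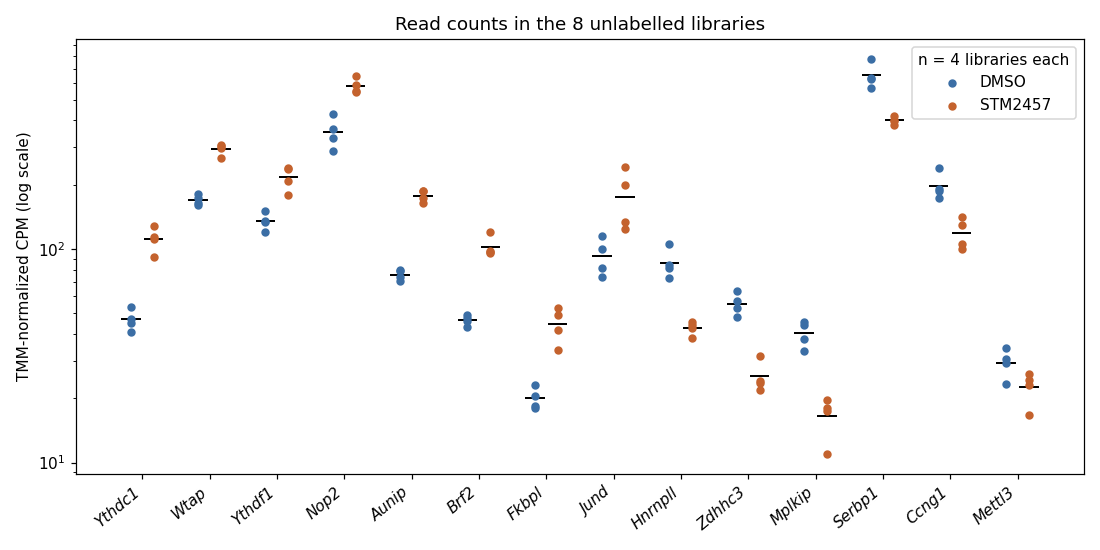
Each point is the TMM-normalized CPM of a gene in 1 of the 8 unlabelled libraries, on a log axis, with DMSO in blue, STM2457 in orange and a bar at the mean of 4 libraries. The groups overlap for Mettl3. The other genes shown were chosen among those called in these same libraries, and every called gene had groups that did not overlap.

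The mark is placed mostly within the letters GGAC followed by any base other than G, often near the stop codon. The match nearest the stop codon whose window lies within one exon is shown for the 3 called genes of the pathway, for Nop2, the risen gene with the highest level, and for the fallen genes Hnrnpll and Mplkip. Capitals mark the motif, and the sequences are written 5′ to 3′ as DNA from the longest coding transcript of GENCODE M21 (GRCm38).
Ythdc1: tatgtgatcgGGACAgagaccgagg
Wtap: agctgtggtgGGACAgccaagtact
Ythdf1: tctggtctcaGGACAagtggaaggg
Nop2: tgtcttaaatGGACTtggaaacttg
Hnrnpll: tacaagtgctGGACAagcatctaag
Mplkip: ggaacatcctGGACAgaacttttac
The windows lie at chr5:86835859-86835883 (plus strand), chr17:12975217-12975241 (minus), chr2:180910925-180910949 (minus), chr6:125144634-125144658 (plus), chr17:80034124-80034148 (minus) and chr13:17697078-17697102 (plus). Those of Ythdc1, Ythdf1 and Hnrnpll are coding and those of Wtap, Nop2 and Mplkip are in the 3′ UTR. A match says nothing on whether the site carried m6A in these cells, and the motif was common: on the sense strand, the only one searched, it occurred in the 3′ UTR of 83.4% of the transcripts of tested genes, of 81.2% of the risen ones and of 85.7% of the fallen ones.

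Among the largest rises, Aunip, which binds Aurora A kinase, was at 74.2, 80.1, 70.7 and 78.6 CPM in DMSO and at 188, 173, 186 and 164 CPM in STM2457. The spread within each group was small beside the gap between them, and its log2 fold change was 1.23 ± 0.12 (SE; adjusted p = 1.57e-05). Brf2, a subunit of the factor that starts RNA polymerase III at U6-type promoters, rose from 49.3, 43.3, 45.8 and 47.5 CPM to 120, 97.1, 98.3 and 95.3 CPM (log2 fold change 1.14, adjusted p = 0.000144). Slc25a28, the mitochondrial iron importer mitoferrin 2, rose from 43.6, 36.1, 44.5 and 33.2 CPM to 106, 94.1, 86.5 and 76.7 CPM (1.21, adjusted p = 0.00025).

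Trp53rkb, which encodes a kinase of the KEOPS complex, rose from 12.6 ± 2.85 to 38.3 ± 6.36 CPM (SD, n = 4), and the zinc finger gene Zfp628 from 8.56 ± 0.91 to 24.5 ± 4.41 CPM. Sema4a, a semaphorin, was at 2.1, 1.13, 5.3 and 1.36 CPM in DMSO and 8.79, 14, 14.3 and 9.08 CPM in STM2457, a log2 fold change of 2.21 ± 0.45 (SE; adjusted p = 0.00794). Its call was kept only without DMSO replicate 3 or without STM2457 replicate 1 among the fits that left out 1 library. Fkbpl, a relative of the FK506-binding proteins, had a log2 fold change of 1.15, AI837181 of 1.29, 2300009A05Rik of 1.38 and Prag1, a pseudokinase, of 1.14. The calls of 2300009A05Rik and Prag1 were lost whichever library was left out, with adjusted p-values of up to 0.0378 and 0.0571. Tbc1d25, a Rab regulator, was the 1 called gene of the X chromosome and rose from 22.8 ± 10.5 to 56.6 ± 13.9 CPM (SD, n = 4). Tbc1d25 kept its call in 3 of the 8 fits that left out 1 library.

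The risen gene with the highest level, Nop2, a nucleolar RNA methyltransferase, went from 428, 330, 366 and 286 CPM to 549, 645, 589 and 541 CPM, with a log2 fold change of 0.72 ± 0.13 (SE; adjusted p = 0.00334). Tmem11, a protein of the inner mitochondrial membrane, had the same log2 fold change of 0.72, Sfn, 14-3-3 sigma, had 0.67, and Il4i1, an L-amino acid oxidase, had 0.56. The call of Il4i1 was lost whichever library was left out, with adjusted p-values from 0.0108 to 0.0508. Of the 8 fits that left out 1 library, Nop2 kept its call in 4, Tmem11 in 3 and Sfn in 5.

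Among the largest falls, Hnrnpll, a splicing regulator (chromosome 17, 80029487 to 80062334, minus strand, GRCm38), was at 73.1, 81.2, 83.7 and 105 CPM in DMSO and at 38.1, 44.1, 45.6 and 42.6 CPM in STM2457. Its highest STM2457 library was well under its lowest DMSO library, and the log2 fold change was -1.01 ± 0.15 (SE; adjusted p = 0.000861). Its paralogue Hnrnpl fell from 351 ± 24.1 to 235 ± 22 CPM (SD, n = 4), a log2 fold change of -0.58 (adjusted p = 0.0084). Hnrnpl kept its call in 3 of the 8 fits that left out 1 library. Its adjusted p was 0.0106 without reads that mapped to several places. Sar1a, the GTPase that starts COPII coat assembly, fell from 85.9 ± 31.1 to 35.4 ± 5.40 CPM, with DMSO replicate 4 the highest at 127 CPM. Zdhhc3, a palmitoyltransferase of the Golgi, fell from 63.5, 52.7, 57 and 47.9 CPM to 23.6, 31.7, 24 and 21.9 CPM (-1.13, adjusted p = 0.00094). Its adjusted p was 0.0116 when libraries were scaled to ribosomal protein genes.

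Serbp1, a ribosome- and mRNA-binding protein and the most abundant fallen gene, went from 635, 567, 628 and 779 CPM to 402, 383, 400 and 419 CPM. Its log2 fold change was -0.70 ± 0.12 (SE; adjusted p = 0.00248). Mplkip, a gene of non-photosensitive trichothiodystrophy, had a log2 fold change of -1.29, 2210016L21Rik of -1.32 and Tnrc6c, a scaffold of microRNA silencing, of -2.21 from 12.5 ± 4.65 to 2.70 ± 0.97 CPM (SD, n = 4). The kinetochore genes Ndc80 (-0.90) and Zwint (-0.63), the mismatch repair gene Pms2 (-0.88), the deubiquitinase gene Usp48 (-1.06), Polr2m (-0.93), which encodes a subunit bound to RNA polymerase II, and the cochaperone gene Dnajc15 (-0.97) also fell. Of the 8 fits that left out 1 library, Pms2 and Usp48 kept their call in 1, Ndc80 in 2, and Polr2m and Dnajc15 in 4. Zwint lost its call whichever library was left out, with adjusted p-values from 0.0108 to 0.0638. Scaled to ribosomal protein genes, none of these genes passed, nor did Serbp1 (adjusted p = 0.0110) and Mplkip (adjusted p = 0.0105). The named rises Nop2, Ythdf1, Jund, Sema4a, Tbc1d25, Il4i1, Prag1 and 2300009A05Rik did not pass under this scaling either. Their adjusted p-values lay from 0.0106 to 0.0149. The value of Tug1 (-1.04) is uncertain because 98.1% of its reads mapped to several places.

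Lists of genes with a shared role held few calls. Calls over all genes tested were 0.794% up and 0.205% down, which is the background for the calls of each list. None of 20 tested naive pluripotency genes passed in edgeR, and 2 passed in DESeq2. Pou5f1 was at 885 CPM in DMSO and 988 CPM in STM2457, Nanog at 247 and 289 CPM, and Klf2 at 474 and 659 CPM (group means), and 5 of the 20 were higher and 1 lower at an unadjusted p under 0.05. Of all genes tested, 10.1% were higher and 8.98% lower at that p, which is the background for this count and for the counts at an unadjusted p given below. The naive list moved both ways, with log2 fold changes from -0.48 to 0.79 and a median of 0.26. Of 15 formative and primed genes, Tcf15, a basic helix-loop-helix factor, rose from 50.3 ± 11.9 to 94.7 ± 13.6 CPM (SD, n = 4; adjusted p = 0.00339), with 7 of the 15 at an unadjusted p under 0.05, 5 higher and 2 lower. Tcf15 kept its call in 3 of the 8 fits that left out 1 library.

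Of 22 genes of the ERK and immediate early list, Jund, a subunit of AP-1, rose from 115, 73.6, 100.0 and 81.3 CPM to 242, 200.1, 134 and 124 CPM. Its groups came close to each other, and its adjusted p of 0.00798 went to 0.0125 when reads that mapped to several places were removed. Of 21 p53 targets, Ccng1, cyclin G1, fell from 198 ± 29.4 to 119 ± 19.6 CPM (SD, n = 4; adjusted p = 0.00524), while Cdkn1a was at 223 and 199 CPM and Mdm2 at 162 and 151 CPM (group means) and did not pass. Ccng1 was also the 1 call among 17 cyclins and CDK inhibitors. Jund and Ccng1 each kept their call in 2 of the 8 fits that left out 1 library. Scaled to ribosomal protein genes, the adjusted p of Ccng1 was 0.0272. Of 288 Zfp zinc finger genes, Zfp141, Zfp574 and Zfp628 rose and none fell. These counts were near the background, since 0.794% of all genes tested rose and 0.205% fell. The Zfp list had a median log2 fold change of 0.01. Zfp141 kept its call in 3 of the 8 fits that left out 1 library.

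No member passed in edgeR among 23 genes of the ATF4 stress response, 21 of cholesterol synthesis, 15 of the CCR4-NOT deadenylase, 10 of decapping, 25 of Polycomb, 13 cytosolic heat shock genes, 21 of glycolysis and hypoxia, 8 of LIF-STAT3 signalling, 8 BMP targets, 8 interferon genes, 10 NRF2 targets or 7 genes of other m6A methyltransferases and SAM synthesis. At the shares of all genes tested, 0.794% up and 0.205% down, lists this short would mostly hold none. At an unadjusted p under 0.05 the CCR4-NOT list held none in either direction, and cholesterol synthesis held 6 higher and none lower. DESeq2 passed 2 cholesterol genes. Ribosomal protein genes (median log2 fold change -0.12, 82 tested), genes of oxidative phosphorylation (-0.09, 72 tested) and proteasome subunits (-0.12, 39 tested) also held no call in edgeR, with 11, 18 and 9 lower and 0, 2 and 0 higher at an unadjusted p under 0.05, to be read against the 8.98% lower and 10.1% higher of all genes. When libraries were scaled to ribosomal protein genes, the median of oxidative phosphorylation was 0.01 and that of all genes tested was 0.09. Such scaling moves all genes by nearly the same amount, so it cannot test where a list lies relative to all genes.

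Markers of other cell types were mostly too low to test, and none was called. Of the 7 mesoderm markers, 3 were tested: T, Brachyury, was at 65.2 CPM in DMSO and 34.3 CPM in STM2457 and did not pass (adjusted p = 0.0192). The mesoderm list summed to 127 to 164 CPM in DMSO and 68.9 to 116 CPM in STM2457, so its ranges did not overlap. T made up a large part of these sums. The 3 tested markers had log2 fold changes from -0.92 to 0.22, with a median of -0.40, so they did not all move the same way. The trophectoderm list summed to 103 to 122 CPM in DMSO and 119 to 138 CPM in STM2457, and the neural list to 11.6 to 21.9 and 18.5 to 27 CPM. Whether these levels had a part in any of the changes above was not tested.

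The labelled libraries gave the same comparison of treatments, with no library shared. At T0, 155 genes were called (1.45% of 10708). All 85 genes that rose without s4U were higher in STM2457 at T0 and 52 of them passed, and all 22 that fell were lower and 15 passed. The median log2 fold change was 0.76 over the risen genes and -0.73 over the fallen ones, against 0.00 over all genes. Over 3531 genes with a mean of at least 50 CPM, the log2 fold changes without s4U and at T0 had a Pearson correlation of 0.83, given as a description across genes, which are not independent.

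At the later times, T2 gave 1486 calls (13.9%), T3 463 (4.32%), T4 314 (2.93%, with 7 libraries), T5 159 (1.48%), T6 552 (5.16%) and T7 1029 (9.61%). T1 gave none in edgeR (0%), with 742 genes at an unadjusted p under 0.05 and 58 called by DESeq2. All 85 risen genes were higher at each of T0 to T5, 79 were at T6 and 80 at T7, and the 22 fallen genes were all lower at T0 to T3 and T5, 21 were at T4 and 17 were at T6 and at T7. The median log2 fold change of the fallen genes went from -0.73 at T0 to -0.24 at T7. The correlation over genes of at least 50 CPM was 0.49 at T1, 0.84 at T2, 0.65 at T3, 0.54 at T4, 0.72 at T5, 0.21 at T6 and 0.34 at T7.

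**Figure D3:**
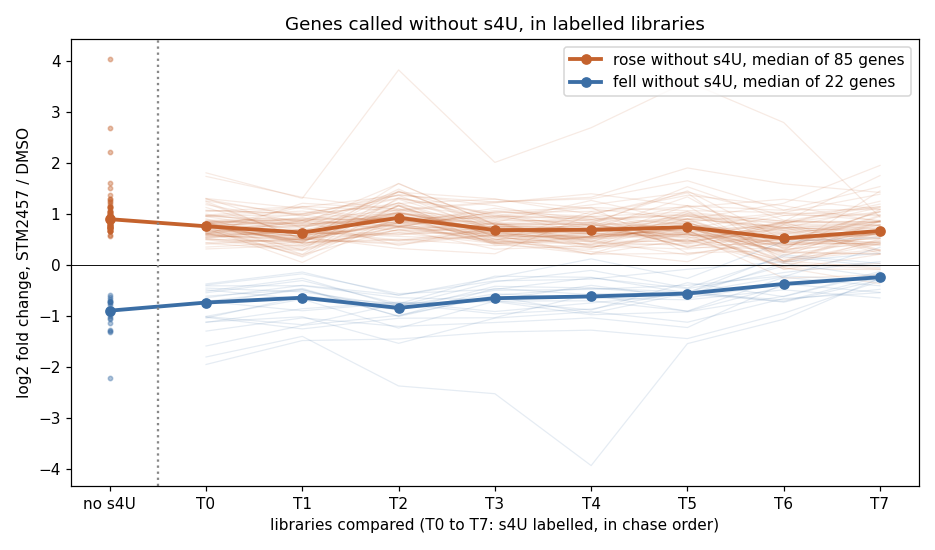
The log2 fold change of STM2457 over DMSO is drawn for the 85 genes that rose and the 22 that fell without s4U, with dots for the unlabelled libraries that chose them and thin lines for T0 to T7, and thick lines for the medians. The medians stay apart from 0 at every time, and the fallen genes come nearest to it at T7, where their median is -0.24.

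The difference between the response without s4U and the response in labelled cells was tested itself. At T0 no gene of 11349 passed in edgeR (0%) or in DESeq2, with 334 at an unadjusted p under 0.05, 8 of them among the 107. On simulated counts that step recovered 23% of 100 genes changed by a log2 difference of 1, so smaller differences were out of reach. At T7, 160 of 11476 genes passed (1.39%), 9 of them among the 107. Ythdc1 had a log2 fold change of 1.26 without s4U and 0.30 at T7, a difference of 0.95 ± 0.19 (SE; adjusted p = 0.0024).

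Mplkip (-1.29 without s4U, 0.35 at T7; adjusted p of the difference = 0.000899) and Serbp1 (-0.70 and -0.01; adjusted p = 0.00294) also differed in their response. Sfn responded more, with 0.67 without s4U and 1.75 at T7 (adjusted p of the difference = 0.0002). Wtap had nearly equal log2 fold changes of 0.78 and 0.71, a difference of 0.06.

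Half-lives were estimated from the conversion rates of the labelled libraries, by the decay of the rate over the chase. Values were obtained in both treatments for 77 of the 85 risen genes, 18 of the 22 fallen genes and 7364 of the genes tested. For DMSO and STM2457 in turn, the medians were 2.35 and 3.22 h over the risen genes, 3.44 and 3.45 h over the fallen genes, and 3.20 and 3.46 h over all genes tested. The half-life was longer in STM2457 in 65 of 77 risen genes (84.4%) and in 9 of 18 fallen genes (50%), compared with 56.6% of all genes tested. The median log2 change in half-life was 0.43, 0.03 and 0.07. Each half-life is 1 fit over the mean of 3 or 4 replicates a time, so single genes carry no replicate error.

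Examples from the risen genes were Ythdc1, with 2.05 h (DMSO) and 4.05 h (STM2457), Wtap with 2.3 and 3.41 h, and Jund with 2.29 and 3.64 h. Zfp574 and AI837181 rose in level with half-lives that were not longer, at 2.73 and 1.94 h and at 3.60 and 3.23 h. Among fallen genes, Hnrnpll had 4.52 and 3.57 h and Serbp1 4.47 and 5.06 h.

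Transcripts of the risen genes had fewer exons than those of all genes tested, whereas the fallen genes were close to all genes. This is a description chosen after the called genes had been seen. The longest coding transcript had a median of 5 exons in the risen genes, 8 in the fallen genes and 9 in all genes tested with such a transcript (10467). Up to 3 exons were found in 26 of 85 risen genes (30.6%), in 3 of 21 fallen genes (14.3%) and in 12.2% of all. Read the other way, 2.83% of 212 tested genes with a single exon rose, as did 1.87% of those with 2 to 3 exons, 1.26% with 4 to 6, 0.622% with 7 to 12 and 0.256% with 13 or more. The shares that fell were 0.472%, 0.187%, 0.174%, 0.178% and 0.228%. The first class rests on 6 risen genes and 1 fallen gene, with the intronless Sfn and Jund among the risen ones. Risen and fallen genes were both better covered, with medians of 67.5 and 57.6 CPM against 25.7 CPM over all genes tested. From a single exon to 13 or more, the median log2 fold change was 0.16, 0.12, -0.01, -0.02 and -0.02. Among genes with a mean of at least 50 CPM it was 0.11, 0.04, -0.04, -0.03 and -0.01. Transcript length was close between the sets (medians of 2863, 3116 and 3096 bases), and the GGAC motif described above occurred at a median of 4.57 per kilobase in risen, 2.73 in fallen and 3.64 in all transcripts.

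**Figure D4:**
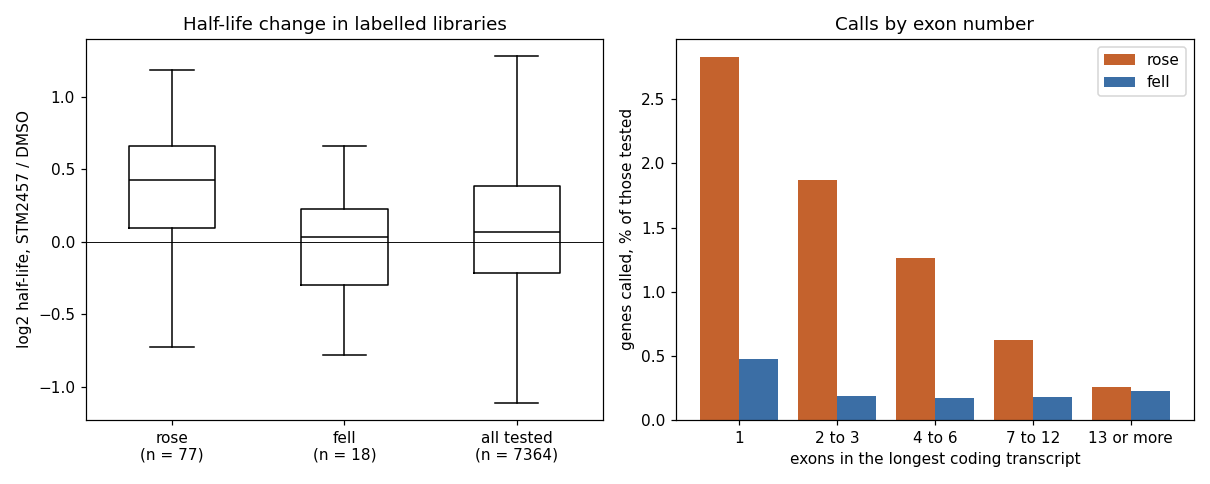
The left panel shows the log2 ratio of half-lives, STM2457 over DMSO, for 77 genes that rose, 18 that fell and 7364 tested (boxes are quartiles, lines medians, whiskers reach 1.5 times the box). The right panel shows the percentage of tested genes that rose or fell by the number of exons, and the share that rose is highest for genes with a single exon, at 2.83%, and lowest for 13 or more exons, at 0.256%.

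Genes of the X chromosome were compared with autosomal genes, since the balance of the X chromosome and the autosomes was the subject of the study. In each library, the median of the X-linked genes (371) minus the median of the autosomal genes (10314) was taken on log2(CPM + 1) after each gene was centred on its DMSO mean. This shift was 0.01, -0.02, 0.00 and 0.03 in the DMSO replicates and -0.08, -0.09, -0.07 and -0.09 in the STM2457 replicates. Every STM2457 library lay below every DMSO library. The difference of -0.09 had a two-sided permutation p of 0.0286, the smallest that 4 against 4 libraries allow. The centring used the group labels and so held the DMSO values near 0, which means that this p is not exact. Centred on the mean of all 8 libraries, which uses no labels, the difference was -0.0795 (two-sided exact permutation p = 0.0286).

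The median log2 fold change was -0.10 on the X chromosome and -0.00 on the autosomes, and the X chromosome had the lowest median of the 20 chromosomes. Chromosome 16 (-0.09) and chromosome 13 (-0.08) were close to it, and chromosome 7 was highest (0.08). Of the X-linked genes, 0.270% rose and none fell, against 0.814% and 0.213% of autosomal genes. The ratio of the median CPM of X-linked to autosomal genes, among genes above 1 CPM, was 0.778 ± 0.027 in DMSO and 0.724 ± 0.027 in STM2457 (SD, n = 4). One DMSO library (0.748) lay under one STM2457 library (0.764), and the difference did not reach a p of 0.05 (two-sided exact permutation p = 0.0571). It passed without STM2457 replicate 3 (-0.0698, exact permutation p = 0.0286).

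**Figure D5:**
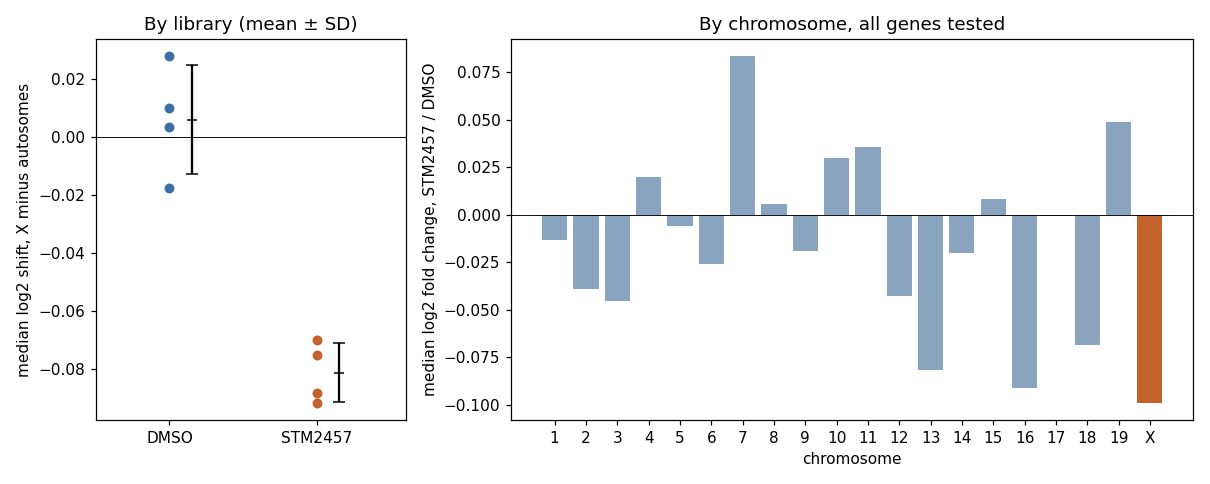
The left panel gives, for each of the 8 unlabelled libraries, the median log2 shift of X-linked minus autosomal genes, with the mean and SD of 4 libraries beside the points, and all STM2457 points lie below all DMSO points. The right panel gives the median log2 fold change of STM2457 over DMSO of the tested genes of each chromosome, which is lowest on the X chromosome at -0.10.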

How the data were processed

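Reads were 3′-end libraries (QuantSeq 3′ mRNA-Seq FWD) without molecular identifiers, as far as the sources state. The authors checked reads with FastQC 0.11.8, mapped and filtered them with SLAM-DUNK, and collapsed 3′ UTR windows (GENCODE M23, GRCm38.p6) to 1 row a gene. The authors deposited per library raw read counts, multimapping reads, covered T positions and conversions as counts, the CPM, which equals the count scaled to the table's total in 71 of 71 libraries within a relative tolerance of 1e-05, and the conversion rate as a fraction. Replicates were not pooled.

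Read counts of the 8 unlabelled libraries were tested with edgeR 4.0.16 in R 4.3.3 (quasi-likelihood test, TMM factors, filterByExpr, no covariate), with Benjamini-Hochberg adjustment over all 10708 genes tested and calls at 0.01. CPM values in the text are TMM-normalized. Each chase time was fitted separately, and differences of responses were fitted as an interaction. DESeq2 1.42.0 was an alternative. On simulated counts of the main comparison, 55% of 100 genes changed by a log2 of 1 and 3% of 100 changed by 0.5 were recovered, with 2 false calls.

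For half-lives, the background rate in unlabelled cells given the same agent was taken off, and an exponential decay was fitted that starts at 1 at T0. Fits were kept where over 100 T positions were covered on average, the residual error was 0.3 or less and the value lay between 0.67 and 18 h. The chase hours (0, 1, 1.5, 2.3, 3.5, 5.3, 8 and 12) were taken from the study's source data. Positions and transcripts are those of GENCODE M21 (GRCm38): 21383 of 21527 genes matched by symbol, 104 by RefSeq synonyms, and 40 were not placed.

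Named genes were the called ones with a mean of at least 5 CPM and groups that did not overlap: the 12 largest changes and the 4 highest levels in each direction, up to 4 called members of each list, and all m6A writers, demethylases and readers. The comparison, the lists and the tests were chosen with earlier results of these data known. No pairing of replicates was used. Same-numbered libraries correlated by 0.116, 0.100, -0.03 and 0.130 over genes, and the rule asked for more than 0.1 in each. The highest correlation of a DMSO replicate with a differently numbered STM2457 library was 0.031, 0.042, 0.058 and 0.121 for replicates 1 to 4. The same number thus gave the higher value in replicates 1, 2 and 4. Within groups no pair of libraries was identical (chi-square per degree of freedom of 6.25 to 29.0). Alternatives covered the scaling, the low count filter, multimapping reads, the threshold, the fit and each library left out.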

Additional observations from a re-analysis of the deposited data

Results flagged for a closer look

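A library far from the other 3 of its group was looked for in 116 groups of 4 values by Dixon's test, which flags about 1 in 20 groups by chance, and 5 were found. STM2457 replicate 1 held 120 CPM of Brf2, above the 95.3 to 98.3 CPM of the other STM2457 libraries. STM2457 replicate 2 held 39.6 CPM of Tug1, above 24.4 to 26 CPM in the others, and 13 CPM of 2300009A05Rik, below 19.5 to 20 CPM in the others. The same library had 25.9% of multimapping reads, under the 27.3% to 27.6% of the other STM2457 libraries. DMSO replicate 1 held 39.5 CPM of Virma, above 33.4 to 33.9 CPM in the others.

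The response to STM2457 differed between the unlabelled libraries and T7 for 160 genes by the interaction term in edgeR. Among the named genes, the log2 response without s4U minus that at T7 was 0.95 for Ythdc1, -1.64 for Mplkip, -0.70 for Serbp1 and -1.09 for Sfn. The unlabelled and T7 cells differed in s4U, in the chase and possibly in the time with the inhibitor, and these cannot be told apart.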

How the results depend on the processing

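The count of 107 calls (85 up, 22 down) was 302 in DESeq2 (199 up, 103 down), 349 without a low count filter (248, 101), 418 at an adjusted p of 0.05 (274, 144), 346 with all 71 libraries in one fit (228, 118) and 53 when scaled to ribosomal protein genes (49, 4), which moved the median of all genes to 0.09. With a replicate block it was 216 (154, 62), although same-numbered libraries did not meet the pairing rule in every replicate. With DMSO replicate 4 and STM2457 replicate 1 left out together, an alternative chosen after the data were seen, it was 162, of which 36 fell. Leaving out 1 library gave 29 to 90 calls, 24 to 68 up and 5 to 22 down. The other scalings, the filter on a mean count of 20 and the removal of multimapping reads gave 89 to 109 calls. Of the 107, 106 were called in DESeq2, 103 in the joint fit and 107 under the block.

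Differences of response at T0 stayed at 0 calls under each alternative. At T7, DESeq2 gave 285 and leaving out 1 library 127 to 183. The X minus autosome shift of -0.09 kept its sign under the alternatives tried. Its two-sided permutation p stayed at 0.0286, apart from the replicate block. With centring on the DMSO mean this permutation p is not exact. It is also the smallest that 4 against 4 libraries allow, so it shows only that the groups stayed apart. Under the replicate block, a paired sign-flip permutation test gave -0.0874 (permutation p = 0.125, the smallest that 4 pairs allow). Centring on all 8 libraries, chosen after the data were seen, gave -0.0795. The difference of the X to autosome ratio, -0.0541, passed at 0.0286 with a mean of at least 10 CPM (-0.0742) and without multimapping reads (-0.0491), and ranged from -0.0698 to -0.0410 with 1 library left out, where it passed only without STM2457 replicate 3 (-0.0698, exact permutation p = 0.0286).

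Signs turned in genes that were not called: Fto (0.027) and Hnrnpa2b1 (0.063) under ribosomal protein scaling, Ythdc2 (-0.26) without the 2 outlying libraries, and, with 1 library left out, Cbll1 (-0.10 to 0.15), Hnrnpa2b1 (-0.061 to 0.021), Mettl14 (-0.057 to 0.33) and Ythdc2 (-0.27 to 0.27). Of 38 called named genes, 26 lost the call in at least 1 fit without a library and none changed sign. The causes were not tested. At 5220971 to 7368244 reads a library, a log2 change of 0.5 was rarely called.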

Other observations

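Some called genes outside the naming rule were picked after their values were seen. Those that rose included Cdk9, the kinase of the elongation factor P-TEFb, with group means of 102 CPM in DMSO and 201 CPM in STM2457, the retinoic acid receptor gene Rara with 28.9 and 59.9 CPM, the growth factor gene Bmp4 with 37.7 and 82.7 CPM, Abt1, an activator of basal transcription, with 92.6 and 192 CPM, and the phosphatase gene Ppm1d with 58.2 and 98.5 CPM. Those that fell included the histone gene H2afx, with 69.1 and 40.2 CPM, and Hmmr, a spindle protein, with 132 and 71.5 CPM. Each passed edgeR's quasi-likelihood test at the adjusted threshold of 0.01, with groups that did not overlap. Reads that mapped to several places made up 73.2% of the reads of Cdk9, and its change without them is not given here.

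Some genes not called without s4U were picked from the 160 whose response differed at T7 by edgeR's interaction term. The stress response genes Ddit3 and Trib3 had a log2 response that was 2.11 ± 0.26 and 1.70 ± 0.26 (SE) higher without s4U than at T7 (adjusted p = 4.66e-06 and 0.000111). The tubulin gene Tubb4b had one that was lower, with a difference of -1.65 ± 0.15 (SE; adjusted p = 1.18e-08). Such a difference does not say whether a gene moved without s4U, at T7 or in both.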
